A study of Mus musculus with 15 samples.

Results

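The genes described here are 39 genes of the response to NF-kB, interleukin-1 (IL-1) and tumour necrosis factor (TNF), measured by RNA-seq in mouse RPE/choroid complex. This tissue joins the retinal pigment epithelium (RPE), the cell layer that supports the photoreceptors, to the vascular choroid. The genes were chosen by symbol, with no measured value in the rule. They comprise cytokines, a receptor antagonist, receptors, adaptors and kinases, NF-kB subunits, inhibitors and IkB family genes, and adhesion molecules or other targets. Chemokines and Ptgs2 were left out. All 39 were among the 40481 genes of the count table, and 38 were among the 17991 genes abundant enough to be tested. The 8 INK-ATTAC libraries came from mice with Abca1/Abcg1 flox/flox, LysM-Cre and INK-ATTAC, and the 7 control libraries from mice with the same floxed alleles and LysM-Cre but no INK-ATTAC. Abca1 and Abcg1 encode cholesterol efflux transporters, and LysM-Cre expresses Cre from Lyz2 in myeloid cells, so both groups carry the alleles for that deletion. In the INK-ATTAC transgene the p16Ink4a promoter drives caspase 8 fused to FKBP, and the dimerizer AP20187 activates this protein and kills cells that use the promoter. All 15 libraries carry the label of intraperitoneal AP20187, and the submitters give a course of 3 months, with injections on alternate days, for mice with the transgene. The labels state neither age nor sex and do not say whether each library is a separate animal, so p-values measure the spread between these libraries, which may in part be technical.

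IL-1, TNF and microbial products act through receptors whose adaptors activate the IkB kinase complex. That kinase marks the IkB proteins for destruction, which frees dimers of NF-kB to enter the nucleus and to switch on cytokines, adhesion molecules and also their own inhibitors, among them Nfkbia and Tnfaip3. In the choroid the adhesion molecules of this response can sit on vascular endothelium, where they hold leukocytes, though not all need be confined to it. RPE cells and resident macrophages can make and sense the cytokines.

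The libraries held between 39121503 and 65065950 counts. The 10 RPE markers summed to 76675 to 99957 CPM (counts scaled to library size) in INK-ATTAC libraries and 69233 to 90327 CPM in controls. Ttr alone averaged 26547 and 24099 CPM in the INK-ATTAC and control groups, and Tyrp1, Pmel and Mlana are also melanocyte markers. Cdkn2a, the gene that encodes p16Ink4a, had 0 to 4 counts in INK-ATTAC libraries and 0 to 2 counts in controls. The labels give no sex, and by the measured Xist, the RNA of the inactive X chromosome, the libraries fell into classes of 0.551 to 1.87 CPM (INK-ATTAC 1 to 4 and controls 1 to 3) and 70.1 to 108 CPM (INK-ATTAC 5 to 8 and controls 4 to 7). Controls 6 and 7 lay above the control mean for 32 and 31 of the 38 genes tested, and several results, but not all, are also given without them. The correlations between genes and with marker lists were not recomputed without both. Mitochondrial genes took 2.37% to 2.81% of counts in INK-ATTAC libraries and 2.26% to 3.67% in controls, with controls 4 and 5 the highest. Lens markers summed to 20.7 to 2662 CPM in INK-ATTAC libraries and 20.7 to 609 CPM in controls, with medians of 164 and 30.5 CPM. All 10 lens genes tested had a higher fitted level in INK-ATTAC libraries, 9 at an unadjusted p under 0.05 and none past the adjusted threshold, with a median log2 fold change of 2.88. The part of lens tissue in the results was not tested.

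Levels per kilobase of exon differed widely between the genes. Nfkbia, which encodes IkB-alpha, was the highest, with 93.0 ± 16.1 CPM per kb in INK-ATTAC libraries and 79.4 ± 11.3 CPM per kb in controls (SD, n = 8 and n = 7). Tnfrsf1a, the TNF receptor present on most cells, followed with 33.6 ± 5.23 and 34.4 ± 7.95 CPM per kb in the INK-ATTAC and control groups. These levels did not meet those of Nfkbia in any library. Rela, the transactivating subunit p65, came next with 18.5 ± 2.64 and 19.2 ± 3.42 CPM per kb in INK-ATTAC libraries and controls, and Nfkbib, the inhibitor IkB-beta, had 17.2 ± 1.12 and 16.6 ± 1.77 CPM per kb. Rela and Nfkbib did not differ beyond their spread, but exons of Nfkbib overlap those of Sirt2 and Ccer2 on the opposite strand, and with no stated strand setting its reads cannot be told from theirs. The adhesion molecules Icam1 and Vcam1 followed, with 10.5 ± 3.95 and 7.68 ± 0.922 CPM per kb in INK-ATTAC libraries and 11.9 ± 5.06 and 9.60 ± 2.64 CPM per kb in controls. The adaptor Myd88 and the target Tnfaip2 followed, with 8.49 ± 0.638 and 6.57 ± 1.54 CPM per kb in INK-ATTAC libraries and 8.76 ± 1.10 and 7.02 ± 1.26 in controls, and these 4 genes overlapped in their spread.

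The secreted cytokines, the selectins and Rel were among the less abundant genes. Il1b, which encodes the secreted cytokine IL-1 beta, had 0.557 ± 0.300 CPM per kb in INK-ATTAC libraries and 1.02 ± 0.471 in controls, and Il1a, its relative IL-1 alpha, had 2.00 ± 0.680 and 2.35 ± 0.472. Tnf itself had 0.238 ± 0.139 CPM per kb in INK-ATTAC libraries and 0.209 ± 0.146 in controls, so its receptor Tnfrsf1a was far more abundant than the ligand. Sele and Selp, the endothelial selectins that start leukocyte rolling, had 0.180 and 0.143 CPM per kb in INK-ATTAC libraries and 0.309 and 0.182 in controls. Rel, the subunit used mainly by lymphoid and myeloid cells, had 0.153 and 0.130 CPM per kb in the INK-ATTAC and control groups, and the cytokine Lif had 0.0790 and 0.0747. Il6, a cytokine that NF-kB induces, was the lowest and was not tested. It had 8, 2 and 2 counts in INK-ATTAC libraries 2, 6 and 8 and none in the other 5, against 2, 6, 6, 10 and 4 counts in controls 1, 3, 5, 6 and 7 and none in controls 2 and 4.

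**Figure D1:**
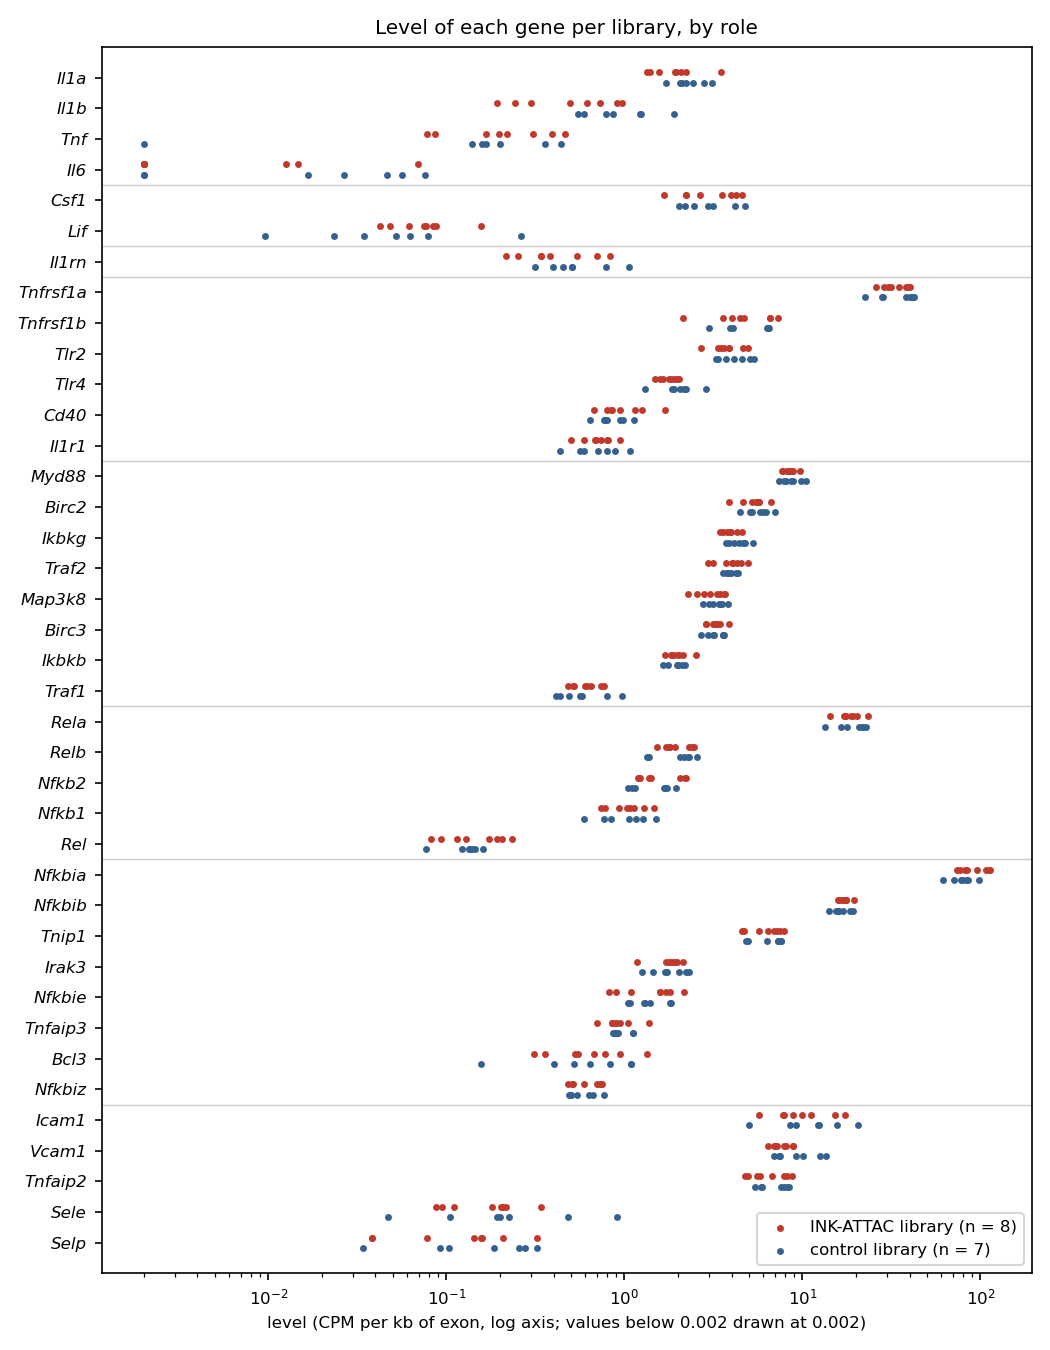
Level of each of the 39 genes in each library, in CPM per kilobase of exon on a log axis, ordered by role and, within a role, by level. INK-ATTAC libraries (red, n = 8) and control libraries (blue, n = 7) overlap for every gene, and Nfkbia is the highest at 93.0 and 79.4 CPM per kb on average.

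Of the inhibitors and IkB family genes, Tnip1 had 6.35 and 6.56, Irak3 1.80 and 1.81, Nfkbie 1.45 and 1.39, Tnfaip3 0.947 and 0.956, Bcl3 0.687 and 0.675, and Nfkbiz 0.626 and 0.585 CPM per kb in the INK-ATTAC and control groups. The subunits Relb, Nfkb2 and Nfkb1 had 1.99, 1.61 and 1.06 CPM per kb in INK-ATTAC libraries and 2.01, 1.48 and 1.03 in controls, so Rela was the most abundant subunit by far. Csf1 had 3.14 ± 1.09 and 3.10 ± 1.03 CPM per kb, and Il1rn 0.451 ± 0.219 and 0.576 ± 0.261, in the INK-ATTAC and control groups.

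The kinases and adaptors between receptor and NF-kB ran from Myd88, given above, to Traf1. Ikbkg, the regulatory subunit of the IkB kinase complex, had 3.93 ± 0.365 CPM per kb in INK-ATTAC libraries and 4.40 ± 0.535 in controls, and Ikbkb, its catalytic partner, had 2.00 ± 0.255 and 1.95 ± 0.187. Their order rests on the lengths used, 8110 bases for Ikbkg and 19078 for Ikbkb. Before division by length, Ikbkg had 31.9 and 35.7 CPM and Ikbkb 38.1 and 37.3 CPM in the INK-ATTAC and control groups. Birc2 and Birc3, ubiquitin ligases of the TNF receptor complex, had 5.35 and 3.24 CPM per kb in INK-ATTAC libraries and 5.70 and 3.25 in controls. Traf2, Map3k8 and Traf1, which carry the signal from TNF family receptors or to the MAP kinases, had 3.97, 3.09 and 0.612 CPM per kb in INK-ATTAC libraries and 3.93, 3.30 and 0.606 in controls. Among the other receptors, Tnfrsf1b had 4.92 and 5.23, Tlr2 3.81 and 4.21, Tlr4 1.78 and 2.05, Cd40 1.02 and 0.864, and Il1r1 0.722 and 0.722 CPM per kb in the INK-ATTAC and control groups.

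Promoters were examined because NF-kB acts on several of its own components. The RefSeq promoter table of GRCm38.p6, with 250 bases before and 50 after each start, held 31 of the 39 genes, and Nfkbiz, Vcam1, Ikbkb, Map3k8, Relb, Cd40, Tlr4 and Nfkb1 had no entry. The kB consensus of NF-kB, searched on both strands, was found in 11 of the 31 genes (35.5%), against 1388 of 27025 genes in the whole table (5.14%). By promoters, the shares were 13 of 42 (31.0%) and 4.51% of 32851. The list was drawn up as NF-kB, IL-1 and TNF response genes, so a share above that of the whole table is no finding of these data. The 11 genes were Bcl3, Csf1, Il1r1, Il6, Nfkb2, Nfkbia, Nfkbie, Rel, Tlr2, Tnfaip3 and Tnip1. Windows follow for 6 genes at different points of the loop, all on GRCm38.p6 and read 5′ to 3′ on the strand of the gene, with the match in capitals. The consensus reads nearly alike on both strands, so in Nfkb2, Rel, Tnip1 and Tlr2 further matches overlap the one shown.
Nfkb2, chr19:46304683-46304722, plus strand: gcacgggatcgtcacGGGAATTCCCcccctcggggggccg
Rel, chr11:23771037-23771076, minus strand: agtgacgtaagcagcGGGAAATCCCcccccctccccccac
Tnfaip3, chr10:19015511-19015550, minus strand: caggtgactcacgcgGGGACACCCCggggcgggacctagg
Tnip1, chr11:54962973-54963012, minus strand: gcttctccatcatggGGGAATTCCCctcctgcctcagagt
Tlr2, chr3:83841756-83841795, minus strand: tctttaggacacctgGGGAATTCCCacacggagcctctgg
Il6, chr5:30013055-30013094, plus strand: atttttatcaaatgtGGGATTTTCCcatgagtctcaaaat

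Nfkbia, the most abundant of the genes, is shown with all 250 bases before its start, which hold 1 match on the strand opposite to the gene, 29 bases before the start at its first base.
Nfkbia, chr12:55492648-55492897, minus strand: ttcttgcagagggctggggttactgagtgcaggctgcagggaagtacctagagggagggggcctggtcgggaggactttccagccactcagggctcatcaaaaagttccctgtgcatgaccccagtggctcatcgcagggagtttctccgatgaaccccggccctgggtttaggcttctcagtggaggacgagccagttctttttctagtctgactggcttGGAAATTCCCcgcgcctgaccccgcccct
A match describes these letters and is not a measured site. Of the genes tested, 4 of 10 with a match and 15 of 20 without one had a lower fitted level in INK-ATTAC libraries, and the median log2 fold change was 0.02 with a match and -0.07 without. Over all genes tested 50.2% had a lower level, and this share was not computed by match. Icam1, Sele, Il1b and Tnf, adhesion molecules and cytokines of this response, fell among the genes without a match. The split therefore does not separate genes that NF-kB drives from others.

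None of the 38 genes tested differed between INK-ATTAC and control libraries at an adjusted p of 0.05 in edgeR's quasi-likelihood test, where 0 of 17991 genes did (0%). At an unadjusted p under 0.05 there were 2 of the 38 (5.26%), Il1b and Vcam1, both lower in INK-ATTAC libraries, against 4.14% of all genes in either direction and 1.94% lower. DESeq2 and limma-voom also called none of the 38, beside 6 and 0 of all 17991 genes. At an unadjusted p under 0.05 they gave 3 and 2 of the 38, beside 758 and 781 of the 17991. For no gene did the groups fail to overlap, as they did for 0.0222% of all genes. The fitted level was lower in INK-ATTAC libraries for 23 of 38 (60.5%), beside 50.2% of all genes, and the median log2 fold change was -0.01, beside -0.00097 over all genes. Without controls 6 and 7, which lay high for most of these genes and were left out after seeing the data, 11 of 38 were lower. The median log2 fold change in that fit was 0.061, beside 0.017 over all genes, whose share lower was not computed there. In these bulk samples, fewer cells of a type and less RNA per cell cannot be told apart.

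**Figure D2:**
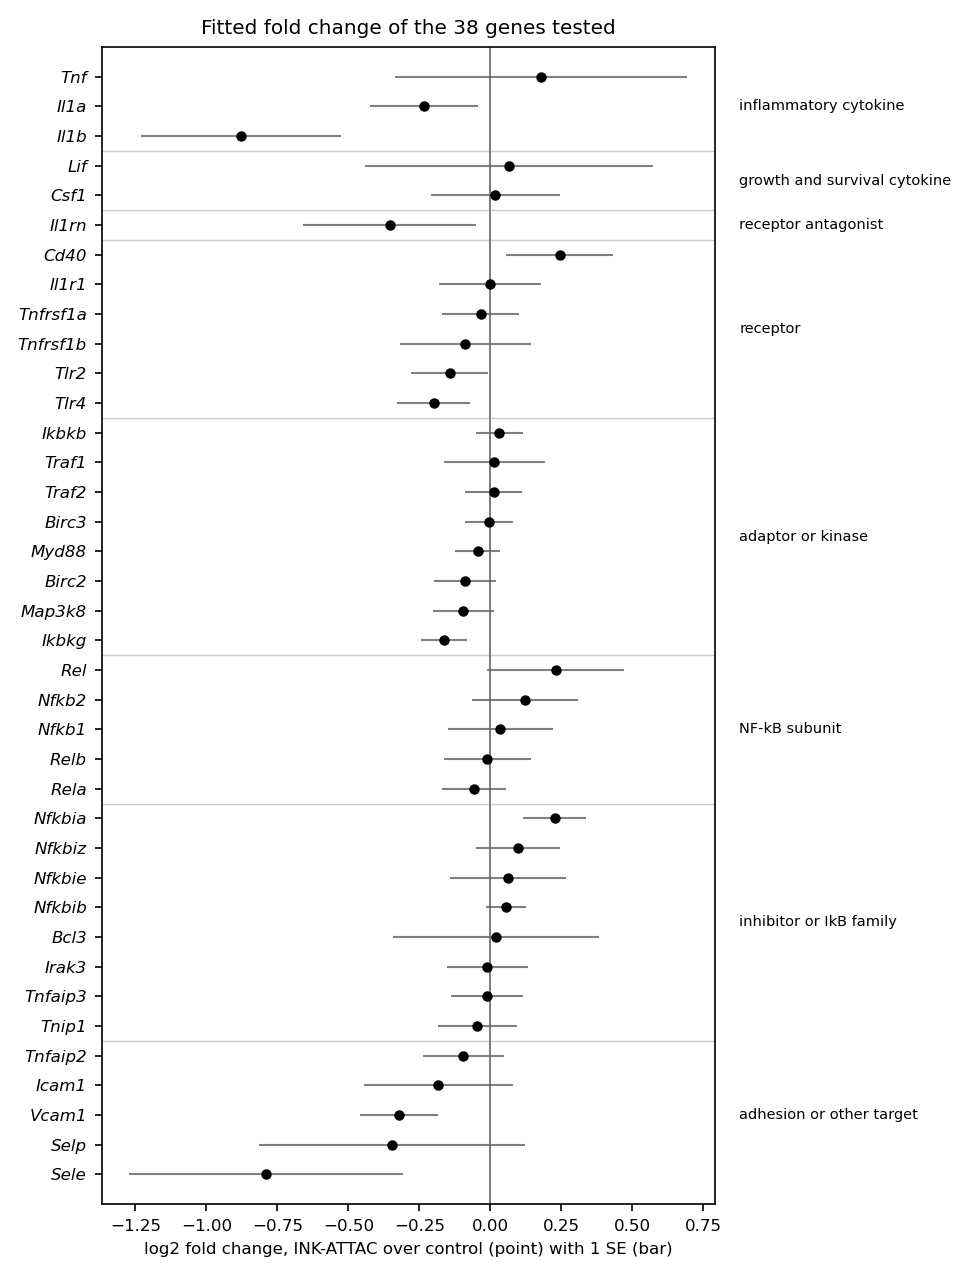
Fitted log2 fold change of INK-ATTAC over control for the 38 genes tested, as a point with 1 SE on each side, grouped by role. Il1b (-0.88) and Sele (-0.79) lie farthest below 0 with wide bars, all 5 adhesion and other target genes lie below 0, and most adaptors and kinases lie within 0.10 of it.

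Among the cytokines, Il1b showed the lowest unadjusted p of the 38. It had 0.368, 1.06 and 1.85 CPM as lowest, median and highest in INK-ATTAC libraries and 1.05, 1.64 and 3.61 CPM in controls. INK-ATTAC 1, 2, 5 and 6 lay below every control and controls 1, 2 and 6 lay above every INK-ATTAC library, while the other 8 libraries overlapped. The log2 fold change was -0.88 with an SE of 0.35, an unadjusted p of 0.0231 and an edgeR adjusted p of 1.00. The Il1b exons overlap those of Il1bos on the opposite strand, and without a stated strand setting their reads cannot be told apart. The immediate early list holds genes switched on within minutes of a stimulus or of tissue handling. It summed to 189 to 463 CPM in INK-ATTAC libraries (median 309) and 268 to 454 CPM in controls (median 409). With this level as a covariate, chosen after seeing the data, the Il1b value was -0.51 (edgeR unadjusted p = 0.126). Of the 23 genes of that list tested, 20 had a lower fitted level in INK-ATTAC libraries, so this fit cannot tell the list from the group.

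Il1a had 2.65, 3.83 and 6.88 CPM as lowest, median and highest in INK-ATTAC libraries and 3.36, 4.40 and 6.12 CPM in controls. The groups overlapped widely, with INK-ATTAC 8 the highest library of all, and the log2 fold change was -0.23 with an SE of 0.19, or -0.40 without INK-ATTAC 8. Il1rn, the antagonist that blocks the IL-1 receptor, had 1.20, 2.00 and 4.57 CPM in INK-ATTAC libraries and 1.75, 2.79 and 5.90 CPM in controls. For Il1rn control 6 was the highest and 2 INK-ATTAC libraries lay below every control, and the log2 fold change was -0.35 with an SE of 0.30. It was -0.13 without control 6, -0.13 without controls 6 and 7 and -0.02 with the immediate early covariate. Tnf had 0.127, 0.341 and 0.757 CPM in INK-ATTAC libraries and 0, 0.273 and 0.719 CPM in controls. Its only library without a count was control 4, and the log2 fold change was 0.18 with an SE of 0.51. The growth and survival cytokines Csf1, which maintains macrophages, and Lif, an IL-6 family member, had log2 fold changes within their SE of 0.

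Of the 6 receptors, 5 had a lower fitted level in INK-ATTAC libraries, and none reached an unadjusted p under 0.05. Tlr4, the lipopolysaccharide receptor, had 8.29, 9.9996 and 11.3 CPM as lowest, median and highest in INK-ATTAC libraries and 7.25, 11.4 and 15.9 CPM in controls. The controls spread wider, with 4 of them above every INK-ATTAC library and control 2 below them all, and the log2 fold change was -0.20 with an SE of 0.13, or -0.10 without control 4. Tlr2, which senses bacterial lipoproteins, had 8.15, 11.3 and 14.9 CPM in INK-ATTAC libraries and 9.84, 12.5 and 16.1 CPM in controls, and the log2 fold change was -0.14 (SE 0.14). Cd40, a costimulatory TNF family receptor, was the receptor with a higher fitted level, with 2.29, 3.05 and 5.74 CPM in INK-ATTAC libraries and 2.19, 2.71 and 3.86 CPM in controls. For Cd40, 3 INK-ATTAC libraries lay above every control, and the log2 fold change was 0.24 with an SE of 0.19. It was 0.09 without INK-ATTAC 2, its highest library, and 0.01 with the immediate early covariate.

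Of the 8 adaptors and kinases, 5 had lower and 3 higher fitted levels in INK-ATTAC libraries. Ikbkg, an X-linked gene, was the one whose fold change exceeded its SE, with 27.8, 31.9 and 37.1 CPM as lowest, median and highest in INK-ATTAC libraries and 30.4, 35.9 and 42.7 CPM in controls. For Ikbkg, 2 INK-ATTAC libraries lay below every control and 3 controls above every INK-ATTAC library. The log2 fold change was -0.16 with an SE of 0.08 and an unadjusted p of 0.0583 in edgeR, and its exons overlap those of G6pdx on the opposite strand.

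The 5 NF-kB subunits split, with 2 lower and 3 higher in INK-ATTAC libraries, and none had a fold change above its SE. Rela had 44.0, 56.0 and 71.8 CPM as lowest, median and highest in INK-ATTAC libraries and 41.3, 64.2 and 69.5 CPM in controls, and the log2 fold change was -0.06 (SE 0.11). Nfkb1, which encodes the precursor p105 and the subunit p50, had 8.90, 12.8 and 17.8 CPM in INK-ATTAC libraries and 7.20, 12.8 and 18.2 CPM in controls, and the log2 fold change was 0.03 (SE 0.18). For both genes the ranges nearly coincided, and control 5 was the lowest of the 15 libraries.

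Of the 8 inhibitors and IkB family genes, 3 had lower and 5 higher fitted levels in INK-ATTAC libraries. Nfkbia had 119, 144 and 182 CPM as lowest, median and highest in INK-ATTAC libraries and 99.9, 127 and 158 CPM in controls. INK-ATTAC 5, 6 and 8 lay above every control, and the other 5 INK-ATTAC libraries lay within the range of the controls. The log2 fold change was 0.23 with an SE of 0.11, an unadjusted p of 0.0557 and an edgeR adjusted p of 1.00. Tnfaip3, the ubiquitin-editing inhibitor A20, had 5.07, 6.51 and 9.91 CPM in INK-ATTAC libraries and 6.26, 6.47 and 8.05 CPM in controls. The INK-ATTAC libraries held both the lowest and the highest Tnfaip3 values, and the log2 fold change was -0.01 with an SE of 0.13. Nfkbib, Nfkbie, Nfkbiz and Bcl3, further IkB family proteins, Tnip1, a partner of A20, and Irak3, an inhibitory relative of the IL-1 receptor kinases, had fold changes within their SE of 0.

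All 5 adhesion and other target genes had a lower fitted level in INK-ATTAC libraries. Vcam1, a ligand of a leukocyte integrin, had 56.9, 67.1 and 79.0 CPM as lowest, median and highest in INK-ATTAC libraries and 61.1, 81.6 and 121 CPM in controls. Controls 1, 4, 6 and 7 lay above every INK-ATTAC library, and controls 6 and 7 were the highest, at 121 and 111 CPM. The log2 fold change was -0.32 with an SE of 0.14, an unadjusted p of 0.0301 and an edgeR adjusted p of 1.00, and without controls 6 and 7 it was -0.10 (unadjusted p = 0.373). Sele had 0.254, 0.556 and 0.991 CPM in INK-ATTAC libraries and 0.137, 0.581 and 2.65 CPM in controls. Controls 6 and 7 lay above every INK-ATTAC library for Sele and the medians were close. The Sele log2 fold change was -0.79 with an SE of 0.48, and without those 2 controls it was 0.23 (unadjusted p = 0.580).

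Icam1, which binds the integrins of leukocytes, had 25.04, 41.2 and 75.4 CPM as lowest, median and highest in INK-ATTAC libraries and 21.9, 53.3 and 89.1 CPM in controls. The groups overlapped across nearly the whole range, from control 5 to control 6, and the log2 fold change was -0.18 with an SE of 0.26. Without controls 6 and 7 it was 0.15 (unadjusted p = 0.568). Exons of Icam1, Vcam1, Selp, Tnfaip2, Bcl3 and Il1a overlap predicted genes on the opposite strand, and those of Myd88, Irak3 and Nfkb2 overlap Acaa1a, Tmbim4 and Psd, so the values of these genes are uncertain in the same way.

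**Figure D3:**
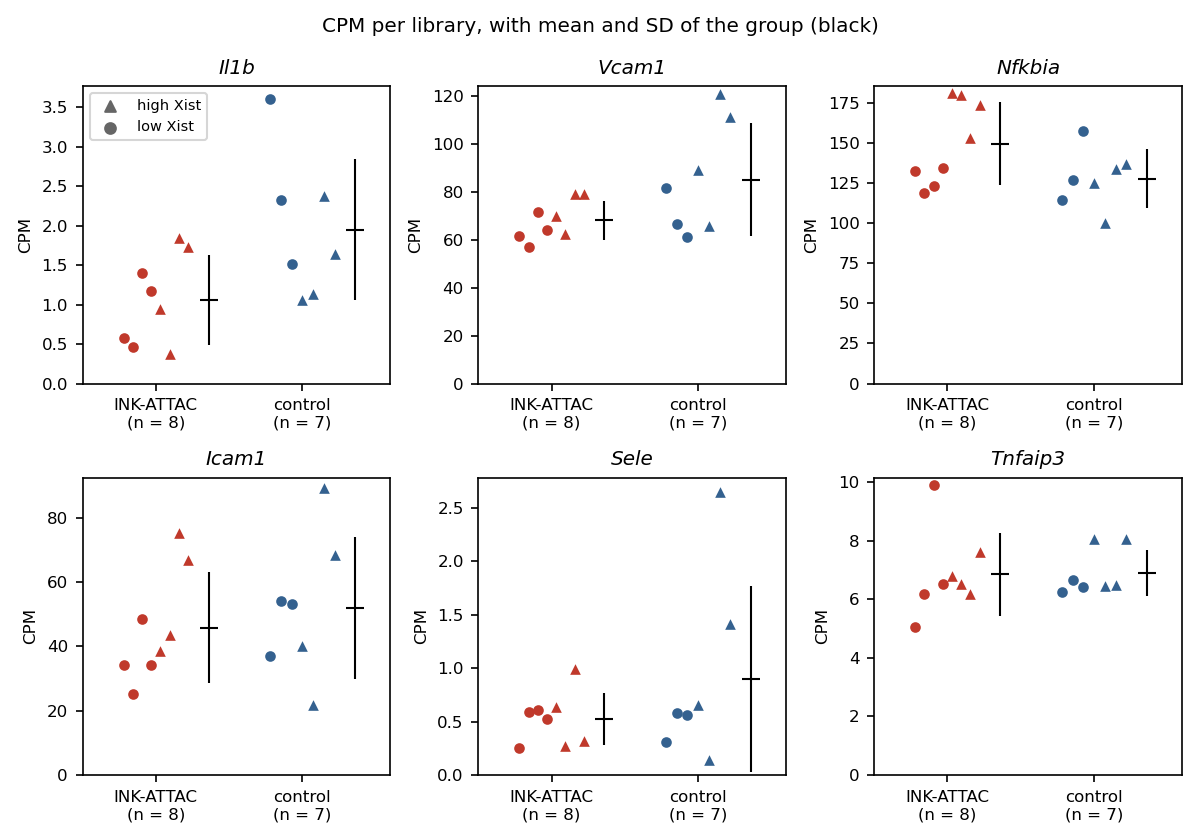
CPM of Il1b, Vcam1, Nfkbia, Icam1, Sele and Tnfaip3 in each library, with INK-ATTAC (red, n = 8) left of control (blue, n = 7), high-Xist libraries as triangles, and the mean and SD of each group in black. Controls 6 and 7, both high in Xist, are the highest libraries for Vcam1 (121 and 111 CPM) and Sele, and for Nfkbia the 4 INK-ATTAC triangles lie at 153 to 182 CPM.

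The authors' deposited table, with limma on its own filter, held 34 of the genes and called none at its adjusted p of 0.05, as it called 0.0208% of 14442 genes. At an unadjusted p under 0.05 the authors' deposited table listed 2 of the 34 (5.88%), beside 6.42% of all its genes. These were Il1b, with a log2 fold change of -1.07 (95% limits -1.77 to -0.37, adjusted p = 0.649), and Vcam1, with -0.32 (-0.60 to -0.03, adjusted p = 0.744), in the authors' deposited table. Nfkbia stood there at 0.19 with limits of -0.02 to 0.40.

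The genes varied together from library to library. Each gene was centred on the mean of its group on the log2 CPM scale, so group differences did not enter. Over 703 pairs of the 38 genes the mean Pearson r was 0.26, beside 0.00103 over pairs of all genes tested, with 32 pairs above 0.8 and 164 below 0. The closest pairs were Nfkb1 with Tnfrsf1a, Rela with Tnfrsf1a, and Rela with Nfkb1, at r = 0.93, 0.93 and 0.92. Icam1 had the highest mean r with the others (0.48), and Ikbkg (-0.15) and Cd40 (-0.15) the lowest. These values describe 15 libraries that share depth and tissue composition between genes, and no p is given.

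The libraries at the ends of this shared variation came from both groups. In INK-ATTAC 7 and 8, 30 and 32 of the 38 genes lay above the mean of their group, with median deviations of 0.17 and 0.21 on the log2 scale, and in INK-ATTAC 2 only 6 did (median -0.22). Among controls, 32 and 31 lay above the mean in controls 6 and 7 (medians 0.32 and 0.19), and 6 did in control 5 (median -0.34). Control 5 also had the highest mitochondrial share, 3.67%, and the part of that share in its low values was not tested.

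**Figure D4:**
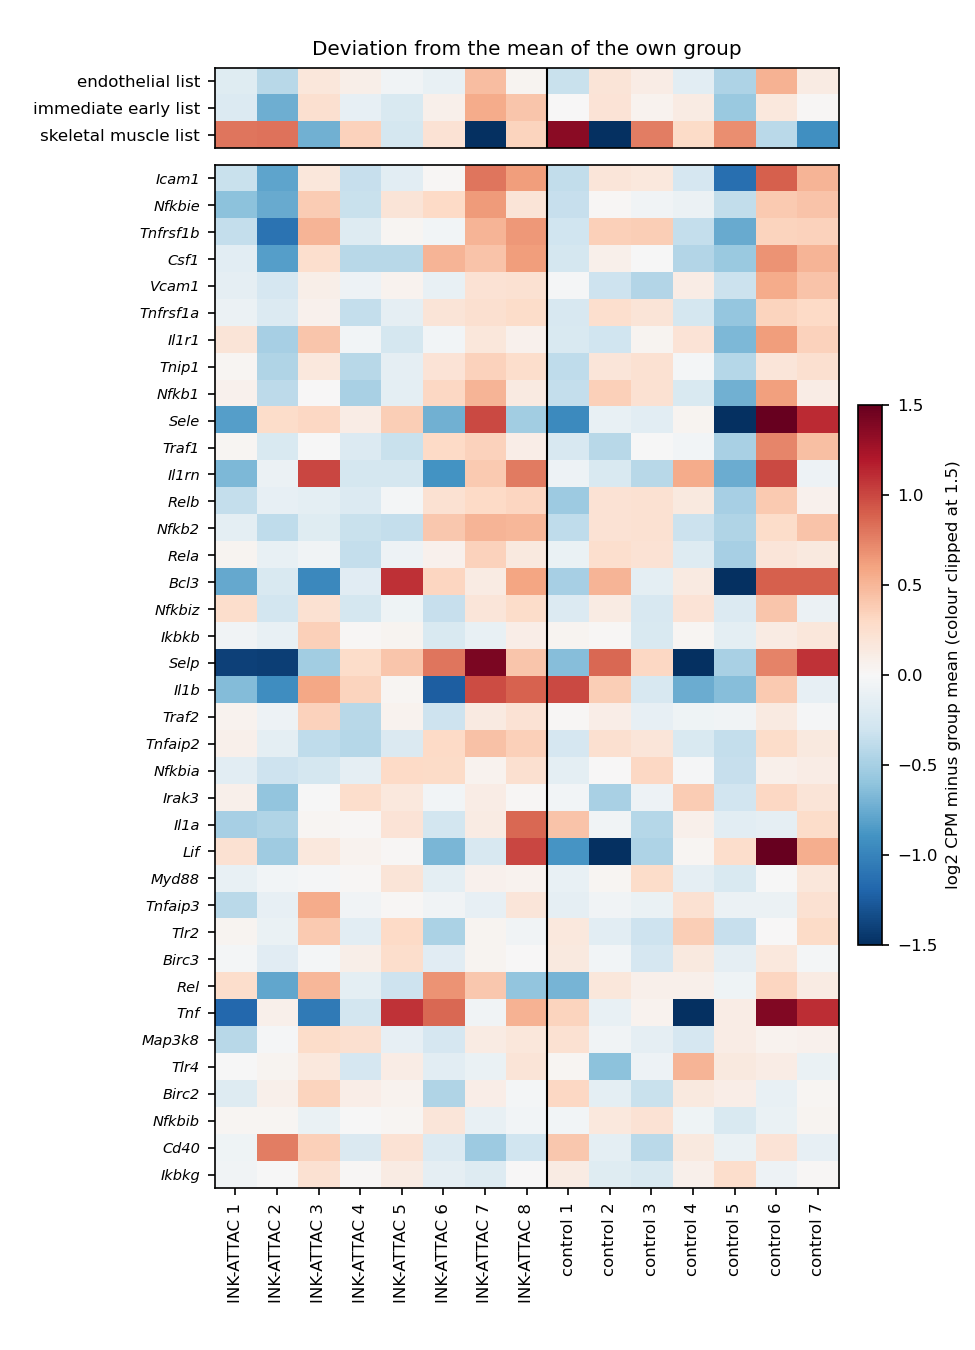
Deviation of each gene (log2 CPM) from the mean of its own group, by library, with INK-ATTAC left of control and the genes ordered by their mean correlation with the others, and above them the summed endothelial, immediate early and skeletal muscle lists. Colour is clipped at 1.5. Controls 6 and 7 and INK-ATTAC 7 and 8 are red in most rows, with 30 to 32 of 38 genes above their group mean, and control 5 and INK-ATTAC 2 are blue, with 6 of 38.

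Markers of blood vessels varied with some of the genes. INK-ATTAC 7 and control 6 had the highest endothelial sums of their groups, at 676 and 686 CPM, and INK-ATTAC 2 and control 5 the lowest, at 368 and 349 CPM, while INK-ATTAC 8 and control 7, at 504 and 523 CPM, lay near their group medians of 487 and 520 CPM. Each gene was related to the summed level of 5 lists of markers or immediate early genes, centred on group means, in 190 relations with 100000 permutations within groups and Benjamini-Hochberg adjustment over the 190. For none of the 5 lists were the relations computed over all genes tested. The counts that pass therefore have no background share beside them and may not be particular to these genes. Against the endothelial list, 8 genes passed an adjusted permutation p of 0.05, all positive, and 3 of them (Icam1, Tnfrsf1b and Nfkbie) also by Spearman's rho. Icam1 had r = 0.90 and rho = 0.88 (permutation p = 4e-05, adjusted p = 0.0038, and for rho p = 0.00011, adjusted p = 0.0146). Without INK-ATTAC 2 and control 5, the libraries farthest from the median of that list, r was 0.83, and within the low-Xist and high-Xist libraries it was 0.92 and 0.93. Tnfrsf1b had r = 0.83 and rho = 0.80 (permutation p = 0.00021, adjusted p = 0.00912, and for rho p = 0.00045, adjusted p = 0.0171), and r was 0.73 without those libraries and 0.92 and 0.84 within the classes.

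The other 5 genes with a positive relation to the endothelial list by Pearson's r were Nfkb1, Sele, Csf1, Tnip1 and Tnfrsf1a. The endothelial list summed to 368 to 676 CPM in INK-ATTAC libraries and 349 to 686 CPM in controls, with 6 of its 12 genes higher and 6 lower in INK-ATTAC libraries and none at 0 in all libraries. Whether more vessel tissue in a library sets these levels was not tested. With the endothelial level as a covariate, chosen after seeing the data, 23 of 38 genes were lower in INK-ATTAC libraries, the same number as without it. The median log2 fold change in that fit was -0.02, beside 0.0034 over all genes.

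Against the immediate early list 8 genes passed by Pearson's r, all positive, and Icam1 and Tnfrsf1b did so by Spearman's rho as well. Icam1 had r = 0.84 and rho = 0.82 with this list (permutation p = 4e-05, adjusted p = 0.0038, and for rho p = 0.00021, adjusted p = 0.0146), with r = 0.84 without INK-ATTAC 2 and 5 and 0.89 and 0.84 within the low-Xist and high-Xist libraries. Of the 23 immediate early genes tested, 3 had a higher and 20 a lower fitted level in INK-ATTAC libraries, with a median log2 fold change of -0.31 and 0 past the adjusted threshold. With the level of this list as a covariate, 11 of 38 genes were lower in INK-ATTAC libraries. The median log2 fold change in that fit was 0.097, beside 0.016 over all genes, whose share lower was not computed there.

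Against skeletal muscle markers, which mark tissue from outside the RPE and choroid, the relation was negative for 34 of the 38 genes. The share over all genes tested was not computed, and the 38 genes vary together, so these are not 34 separate observations. It passed for Nfkbie, with r = -0.72 and rho = -0.84 (permutation p = 0.00144, adjusted p = 0.0249, and for rho p = 0.00023, adjusted p = 0.0146), r = -0.85 without controls 2 and 7, and -0.65 and -0.88 within the low-Xist and high-Xist libraries. The 14 muscle markers summed to 667 to 3384 CPM in INK-ATTAC libraries and 271 to 2363 CPM in controls, none was at 0 in all libraries, and all 14 had a higher fitted level in INK-ATTAC libraries. With the muscle level as a covariate, 10 of 38 genes were lower in INK-ATTAC libraries. The median log2 fold change in that fit was 0.10, beside 0.011 over all genes, whose share lower was not computed there. The part of muscle tissue in the results was not tested beyond this.

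Macrophage and neutrophil markers passed with none of the 38 genes, with median r of 0.30 for each list. Icam1 had r = 0.51 with the macrophage list, or 0.65 without controls 1 and 7. Within the low-Xist and high-Xist libraries it was -0.59 and 0.71, and for Tnfrsf1b -0.55 and 0.84, while Vcam1 had 0.36 and 0.79. With the neutrophil list Icam1 had 0.54 and 0.60 within the classes. The pooled macrophage r thus does not hold for every gene within a class, and this difference was not tested. The macrophage and microglia list summed to 1826 to 2342 CPM in INK-ATTAC libraries and 1749 to 2402 CPM in controls, and 12 of its 14 genes had a lower fitted level in INK-ATTAC libraries, with a median log2 fold change of -0.05. The 12 neutrophil markers summed to 14.8 to 21.1 CPM in INK-ATTAC libraries and 16.6 to 25.8 CPM in controls.

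The comparison was also made within each Xist class, since both groups hold both. The difference of the INK-ATTAC effect between the classes, tested as an interaction in edgeR, passed the adjusted threshold for none of the 38 genes and for 0% of all genes. At an unadjusted p under 0.05 it stood at 3 of 38 (7.89%), beside 4.77% of all genes, and these were Nfkbia, Lif and Tnfaip2, named after their values were seen. Nfkbia had 172 ± 13.0 CPM in high-Xist INK-ATTAC libraries and 124 ± 16.9 CPM in high-Xist controls (SD, n = 4 each), and 127 ± 7.52 CPM in low-Xist INK-ATTAC libraries against 133 ± 22.2 CPM in low-Xist controls (SD, n = 4 and n = 3). In the high-Xist libraries the groups did not overlap, at 153 to 182 CPM in INK-ATTAC and 99.9 to 137 CPM in control, and in the low-Xist libraries they did. Nfkbia was the 1 gene of 38 without overlap in the high-Xist class (2.63%), beside 2.88% of all genes. The log2 fold change was 0.47 with an SE of 0.11 in the high-Xist class and -0.06 with an SE of 0.12 in the low-Xist class. Their difference was 0.54 with an SE of 0.17, an unadjusted p of 0.00541 and an edgeR adjusted p of 0.876. Without controls 6 and 7, chosen after seeing the data, the high-Xist value was 0.61 with an SE of 0.13 against controls 4 and 5 alone, and its edgeR adjusted p was 0.0430. In that fit 1 of 38 genes (2.63%) and 1.55% of all genes passed, and the difference between the classes was 0.68 with an SE of 0.17 (edgeR adjusted p = 0.121, with 0% of all genes passing). Controls 6 and 7 lay above the control mean for most of the 38 genes, so leaving them out favours higher INK-ATTAC values. INK-ATTAC 7 and 8, above their group mean for 30 and 32 genes, were kept, and controls 4 and 5 had the fewest counts. The adjusted p without controls 6 and 7 is therefore no independent test.

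Il1b showed its separation in the other class. In low-Xist libraries it had 0.463 to 1.40 CPM in INK-ATTAC and 1.51 to 3.61 CPM in control, with no overlap, and a log2 fold change of -1.46 with an SE of 0.51 (edgeR adjusted p = 0.998). In high-Xist libraries it had 0.368 to 1.85 CPM in INK-ATTAC and 1.05 to 2.38 CPM in control, which overlap, and the log2 fold change was -0.35 (SE 0.47). The difference between the classes had an edgeR adjusted p of 0.876. Lif, at 10 to 18 counts in low-Xist INK-ATTAC libraries and 2 to 8 counts in low-Xist controls, also did not overlap there, and these were 2 of 38 genes (5.26%), beside 5.33% of all genes. For Lif the log2 fold change was 1.69 (SE 0.68), against -0.46 (SE 0.54) in high-Xist libraries. Tnfaip2, a TNF-induced gene of endothelial and myeloid cells, had -0.39 (SE 0.19) in the low-Xist and 0.15 (SE 0.17) in the high-Xist class.

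By role, 4 of the 5 NF-kB subunits had a lower fitted level in INK-ATTAC libraries within the low-Xist class and 0 of 5 within the high-Xist class. Receptors ran the other way, with 2 of 6 lower in the low-Xist and 4 of 6 in the high-Xist class, and so did adaptors and kinases, with 4 of 8 and 6 of 8. The difference between the classes passed the adjusted threshold for no gene of any role. Many of these genes vary together between libraries, so the counts by role are not separate observations of an INK-ATTAC effect. Over all 38 genes, 24 were lower within the low-Xist class (63.2%, beside 50.0% of all genes) and 18 within the high-Xist class (47.4%, beside 49.0%), or 10 (26.3%, beside 47.7%) without controls 6 and 7. With all libraries none passed the adjusted threshold within either class, as 0% of all genes did. Between the classes themselves, with group in the fit, 31 of 38 genes had a higher fitted level in high-Xist libraries (81.6%), beside 53.0% of all genes, and without controls 6 and 7 it was 28 (73.7%), beside 52.2%. None of the 38 passed the adjusted threshold there, as 0.178% of all genes did. At an unadjusted p under 0.05 it was 3 of 38 (7.89%), beside 10.3% of all genes, namely Vcam1 (log2 0.32), Nfkbie (0.44) and Bcl3 (0.75). Without controls 6 and 7 these were 0.18, 0.35 and 0.52, with unadjusted p of 0.0838, 0.109 and 0.193. Controls 6 and 7, the highest controls for many of these genes, both belong to the high-Xist class, and so do controls 4 and 5, among which control 5 is the lowest.

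**Figure D5:**
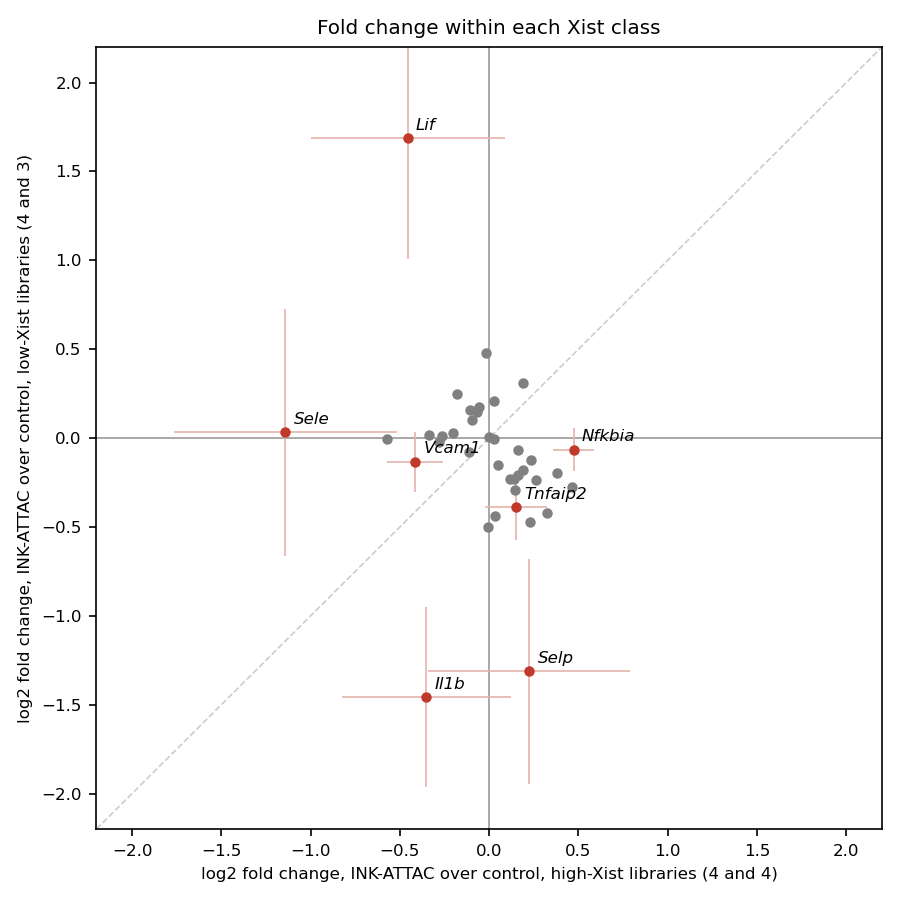
Log2 fold change of INK-ATTAC over control within the high-Xist libraries (4 and 4, horizontal axis) and within the low-Xist libraries (4 and 3, vertical axis) for the 38 genes tested, with 1 SE for the 7 labelled genes. Nfkbia lies to the right at 0.47 with a low-Xist value of -0.06, Lif lies at the top at 1.69, and Il1b lies below 0 in both classes.

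Other genes of the same pathways gave a similar picture, and none passed the threshold. Of 33 other NF-kB pathway genes, all tested, 16 had a higher and 17 a lower fitted level in INK-ATTAC libraries. The lowest p was that of Cyld, a deubiquitinase that restrains the pathway, with 29.1 ± 1.76 CPM in INK-ATTAC libraries and 33.5 ± 3.88 CPM in controls (SD, n = 8 and n = 7). Its log2 fold change was -0.21 with an SE of 0.07, an unadjusted p of 0.0101 and an edgeR adjusted p of 1.00. Irak2, a kinase of the IL-1 receptor complex, and Itch, a ubiquitin ligase, followed with -0.12 and -0.16. Of 28 other IL-1, TNF and Toll family ligands and receptors tested, 7 were higher and 21 lower, with a median log2 fold change of -0.06, and none had an unadjusted p under 0.05. Of the 9 inflammasome genes, which process IL-1 beta, 3 were higher and 6 lower, with a median of -0.08.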

How the data were processed

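RNA-seq of the RPE/choroid complex gave 15 libraries. RNA was extracted with TRIzol and NucleoSpin columns and made into amplified cDNA with SMARTer, per the labels' protocols. The submitters' processing notes name bcl2fastq, DRAGEN, edgeR, limma and GRCm38. Versions and the counting program with its strand setting: not given in the sources used here. The authors deposited raw read counts per Ensembl gene, not normalized, in 40757 entries, of which 276 exact repeats were collapsed. The authors also deposited a comparison table with, per the file headers, p-value, adjusted p-value and log2 fold change with its limits.

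Counts were scaled by TMM, filtered with filterByExpr and tested with edgeR 4.0.16 (R 4.3.3) by quasi-likelihood, two-sided, for INK-ATTAC over control, with p-values adjusted by Benjamini-Hochberg across the 17991 genes and called at 0.05. The SE is the absolute log2 fold change over the square root of F. The biological coefficient of variation was 0.265. Log2 CPM used a prior count of 2. CPM per kb divides CPM by the merged length of all annotated exons of the gene in GENCODE M21 (GRCm38), the source of positions. This length can exceed that of the transcript present, which lowers the value for such genes. Amplified cDNA without molecular identifiers does not give independent molecules. Libraries of a group differed from each other, the lowest chi-square per gene being 29.97 over 49 pairs. Fold changes are given by name for genes whose absolute log2 fold change exceeds its SE and for Nfkb1, Rela, Nfkbia, Tnfaip3, Il1b, Tnf, Icam1 and Vcam1. The genes and lists were chosen with earlier results of these data known. Fits were tested on simulated data. Alternatives used DESeq2 1.42.0, limma 3.58.1, other filters and scaling, covariates, replicate blocks and leaving out each library.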

Additional observations from a re-analysis of the deposited data

Results flagged for a closer look

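In 76 groups of libraries checked (38 genes in 2 groups), 3 had a library far from its group, and chance alone marks about 1 group in 20. Tnf had 0 CPM in control 4, the library with the fewest counts, where the nearest control, control 2, had 0.228 CPM. Rel had 0.571 CPM in control 1, and the nearest control, control 5, had 0.911 CPM. Irak3 had 4.33 CPM in INK-ATTAC 2, and the nearest library, INK-ATTAC 6, had 6.34 CPM.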

How the results depend on the processing

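No setting called any of the genes described here in the comparison of all INK-ATTAC with all control libraries. DESeq2 called 6 genes and limma-voom with sample quality weights 2 genes of the whole table, where edgeR called 0 with 745 at an unadjusted p under 0.05. The number of genes with a lower fitted level in INK-ATTAC libraries, 23 of 38, was 10 with the skeletal muscle level as covariate, 11 without controls 6 and 7 and 11 with the immediate early level as covariate, the last 2 chosen after seeing the data. The medians in these fits were 0.10, 0.061 and 0.097, beside 0.011, 0.017 and 0.016 over all genes. The share of all genes lower was not computed in them. The causes were not tested beyond these fits. Within the high-Xist class, 18 genes were lower with all libraries (47.4%, beside 49.0% of all genes). Without controls 6 and 7 it was 10 (26.3%, beside 47.7%). In that fit 1 of the 38 genes passed (2.63%), Nfkbia, beside 1.55% of all genes. In the comparison of both classes together, where 23 of 38 were lower, leaving out each library gave 17 (without INK-ATTAC 2) to 28 (without control 5). The medians at these ends were 0.0066 and -0.088, beside -0.0062 and -0.013 over all genes. The median log2 fold change ran from -0.09 to 0.10 over the 29 alternatives and was above 0 in 6. Il1b stayed between -1.07 and -0.51 and Vcam1 between -0.39 and -0.10, at an unadjusted p under 0.05 in 26 and 23 of 29 alternatives. Nfkbia stayed between 0.17 and 0.34, at an unadjusted p under 0.05 in 10.

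Of 433 values of the 15 named genes, 23 changed sign. With the skeletal muscle covariate Icam1 was 0.21, Rela 0.085 and Tnfaip3 0.080. With the immediate early covariate these were 0.26, 0.093 and 0.066, and without controls 6 and 7 they were 0.15, 0.0020 and 0.018, with Sele at 0.23. Nfkb1 was -0.044 with quality weights. Leaving out each library, Cd40 ran from 0.09 to 0.31, Il1rn from -0.54 to -0.13, Icam1 from -0.32 to -0.00084, Sele from -0.99 to -0.23, Nfkb1 from -0.070 to 0.15, Tnf from -0.031 to 0.46 and Tnfaip3 from -0.11 to 0.031.

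Libraries of the 2 groups share numbers in their titles and in their descriptions. Deviations of same-numbered libraries correlated at -0.10 to 0.29 by title and at -0.15 to 0.23 by description, and 5 and 1 of 14 libraries correlated best with their own number, so the numbers were not taken as pairs. With a replicate block by title 26 of 38 genes were lower, with a median of -0.05, and by description 21, with a median of -0.0069 and Tnfaip3 at 0.028. Over all genes the medians with these blocks were -0.0013 and -0.00084. Neither block called any gene.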
